A study of Mus musculus with 56 samples.

Results

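Cadherins are calcium-dependent adhesion proteins of the cell surface, and the protocadherins are their largest branch in the brain. Transcripts of both were examined in prefrontal cortex (also labelled frontal cortex) and nucleus accumbens of inbred mice. The members were all genes whose platform symbol is Cdh followed by a digit or starts with Pcdh. By that rule, 56 of the 18182 genes with a probe set annotated to 1 symbol were members, read by 101 probe sets. The brightest probe set of each gene was used, and 24 of the 56 members exceeded an intensity of log2 5 on 13 or more of the 54 arrays of paired strains. The other 32 members were too dim for the test, so counts over the 24 do not describe all members.

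Each array held RNA pooled from 3 male mice, 8 to 10 weeks old, of 1 inbred strain and 1 region. Cortex was profiled in 29 strains and accumbens in 27 of them, with MRL/MpJ and NZO/HILtJ in cortex alone. The 27 strains with both regions were WSB/EiJ, SWR/J, SM/J, SJL/J, RIIIS/J, PL/J, P/J, NZW/LacJ, NON/LtJ, NOD/LtJ, MA/MyJ, KK/HlJ, I/LnJ, FVB/NJ, DBA/2J, CE/J, CBA/J, C58/J, C57BR/cdJ, C57BL/6J, C3H/HeJ, BUB/BnJ, BTBR T+ tf/J, BALB/cByJ, AKR/J, A/J and 129S1/SvImJ. The labels name no treatment, and the study's design text describes the regions as cut from neighbouring brain slices. No strain had a second pool of a region, so strain differences rest on the agreement of the 2 regions of a strain. The 2 tissues of a strain can share the same 3 mice, so their agreement does not separate a strain from its pooled animals. An effect of a strain in 1 region alone cannot be told from the error of its array.

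In classical cadherins the extracellular repeats bind the same or a related cadherin on the facing cell, and the cytoplasmic tail binds catenins that reach actin. Type I members such as N-cadherin and R-cadherin adhere strongly, and type II members are expressed in combinations that differ among neuronal populations and brain nuclei. The delta protocadherins are solitary genes with graded regional expression, and several of them recruit the WAVE complex, which drives actin branching. The clustered protocadherins lie in tandem arrays of alpha, beta and gamma genes, and each neuron uses its own subset, chosen by promoter activation and needed for telling its own branches from those of other cells.

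Promoter sequences from RefSeq (GRCm38.p6) are shown for 4 of the genes on which the region results turn. Pcdh10 and Pcdh17 were higher in accumbens, and Pcdh7 and Cdh10 were higher in cortex. Each sequence is the 250 bases before the annotated start on the plus strand, 5′ to 3′, and capitals mark matches to a GC box (GGGCGG or its complement CCGCCC) or a CCAAT box (CCAAT or ATTGG).
Pcdh10, chr3:45378148-45378397: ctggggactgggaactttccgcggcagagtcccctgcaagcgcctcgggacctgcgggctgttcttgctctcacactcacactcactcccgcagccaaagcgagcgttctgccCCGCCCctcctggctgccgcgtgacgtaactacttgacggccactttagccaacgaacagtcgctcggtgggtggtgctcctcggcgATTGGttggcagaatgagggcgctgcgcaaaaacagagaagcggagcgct
Pcdh17, chr14:84443313-84443562: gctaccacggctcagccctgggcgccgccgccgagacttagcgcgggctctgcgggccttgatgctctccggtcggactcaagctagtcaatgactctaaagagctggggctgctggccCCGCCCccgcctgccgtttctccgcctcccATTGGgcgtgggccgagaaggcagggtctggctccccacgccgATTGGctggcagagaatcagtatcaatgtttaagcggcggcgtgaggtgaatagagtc
Pcdh7, chr5:57717831-57718080: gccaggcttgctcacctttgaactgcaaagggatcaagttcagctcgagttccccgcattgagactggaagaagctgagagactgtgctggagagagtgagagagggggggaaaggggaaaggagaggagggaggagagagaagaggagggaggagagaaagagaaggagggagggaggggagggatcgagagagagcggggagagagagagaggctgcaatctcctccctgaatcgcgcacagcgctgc
Cdh10, chr15:18820079-18820328: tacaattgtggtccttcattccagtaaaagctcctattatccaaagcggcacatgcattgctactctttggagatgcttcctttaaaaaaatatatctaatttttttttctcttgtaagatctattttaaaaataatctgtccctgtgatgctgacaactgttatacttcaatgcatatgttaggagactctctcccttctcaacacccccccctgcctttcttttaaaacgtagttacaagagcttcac

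The Pcdh10 window held 22 CpG dinucleotides, 1 GC box and 1 CCAAT box, and the Pcdh17 window held 21 CpG, 1 GC box and 2 CCAAT boxes. The Pcdh7 window held 7 CpG and the Cdh10 window 2, and neither held a match to these motifs on either strand. Over all 32851 promoters of the table the median was 6 CpG in the same length. A GC box occurred in 32.7% of them and a CCAAT box in 33.8%, so a match is common. None of the 4 windows held TATAAA, found in 12.4% of all promoters, or TGACGTCA, found in 1.55%. Genes on chromosome 18 were left out of the comparison of members, so the clustered beta genes and Cdh2 are not in it. Among the rest, the table held a promoter for 12 of the 24 members that passed the filter. Within these 12, CpG counts varied within both directions. Cdh22 and Pcdh9, lower in accumbens, had 30 and 18 CpG, and Cdh7, higher in accumbens, had 3 to 17 in its 3 promoters.

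Of the 24 members, 14 were higher in accumbens, 7 were lower and 3 did not pass the test (limma with strain as a block, Benjamini-Hochberg adjusted p under 0.05). Over all 10680 features tested, 51.0% were called higher and 32.9% lower, 83.9% in either direction, so a call by itself sets these genes little apart from the rest of the array. The median difference, accumbens minus cortex, was 0.38 log2 units over the 24 members and 0.12 over all features. This order depended on the filter, since the medians were -0.02 and -0.02 with no filter and 0.04 and 0.10 with a filter at log2 7. Cdh7, Pcdhb7 and Pcdhb20 exceeded log2 5 on 13 arrays in accumbens alone and Pcdh15 in cortex alone, so these 4 entered the test through the region where they are high. The fitted difference was at least 2-fold in 8 members higher in accumbens (8.28% of all features) and in 1 lower (7.09%). Of the 8, Cdh7, Pcdhb7 and Pcdhb20 had cortex means under log2 5, and with values below log2 5 raised to 5 the count was 6, without Pcdhb7 and Pcdhb20. After quantile normalization across regions it was 4, namely Cdh13, Pcdh10, Pcdhb16 and Cdh4. The ranges of the 27 strains did not overlap between regions for Pcdh10 and Pcdh7, 2 of the 24 members, against 11.4% of all features. Strain was called for 6 of the 24 (20.4% of all features). The median SD of the strain means was 0.28 for members and 0.18 for all features, and the median residual SD was larger in members by a similar margin, 0.29 against 0.20.

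**Figure D1:**
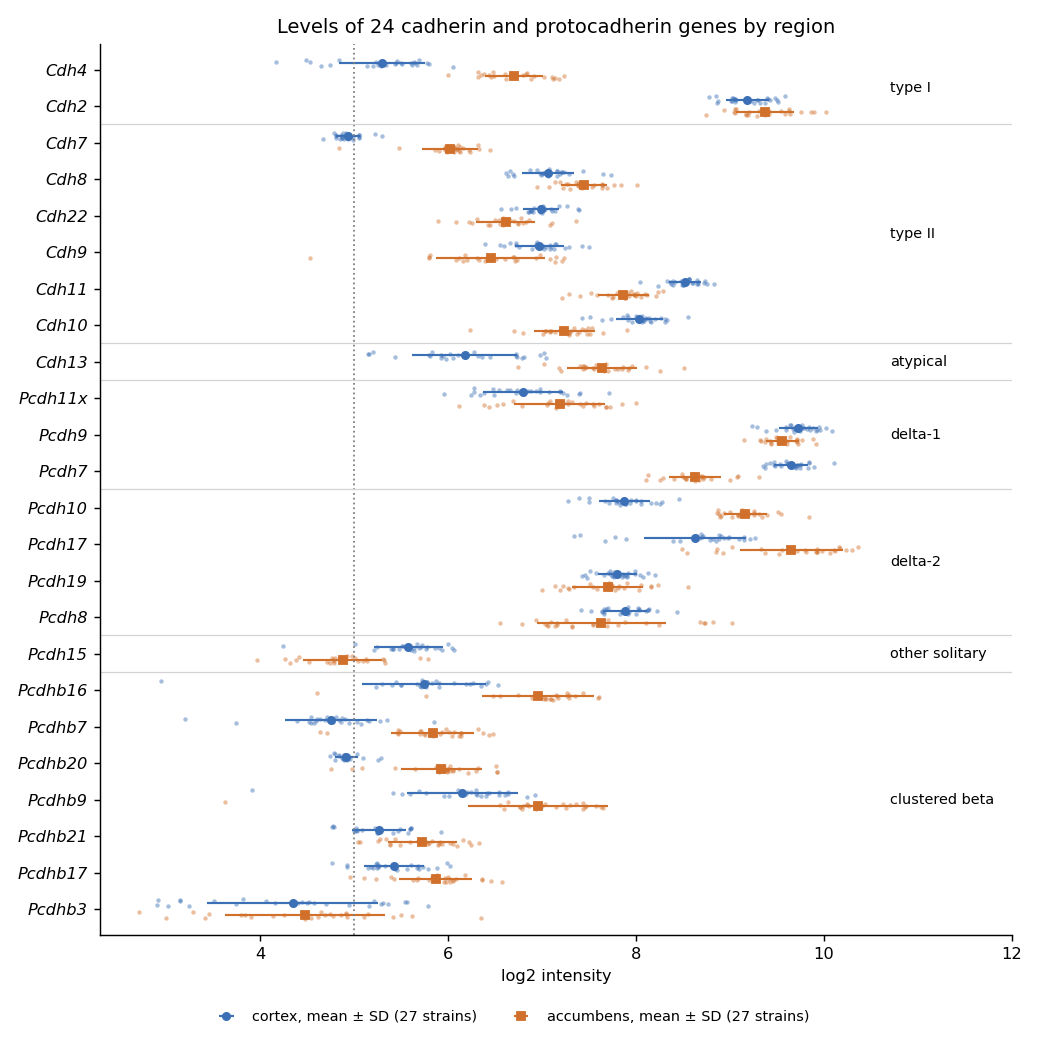
Log2 intensity (horizontal axis) of the 24 members that passed the filter, with the 27 strains as small points, the mean ± SD as large symbols with bars (blue circles cortex, orange squares accumbens) and a dotted line at log2 5. Pcdh10 and Pcdh7 are the members whose cortex and accumbens points do not overlap across the 27 paired strains.

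Type I classical cadherins were represented by N-cadherin (Cdh2) and R-cadherin (Cdh4), and both were higher in accumbens. Cdh4 ranged in cortex from 4.17 in NON/LtJ through a median of 5.43 to 6.05 in P/J, and in accumbens from 6.00 in FVB/NJ through 6.70 to 7.23 in CE/J. All 27 strains read higher in accumbens, and the 2 regions barely touched, at the top of cortex and the bottom of accumbens. The mean rose from 5.30 ± 0.46 to 6.70 ± 0.31 (SD, n = 27 strains), a difference of 1.41 (SE 0.09, adjusted p = 5.96e-15) or 2.65-fold. A second probe set of Cdh4 gave 1.99, but its cortex mean was 4.12, under log2 5, so the size of that difference is not firm. Cdh2, the main classical cadherin of synapses, lay between 8.77 and 9.59 in cortex and between 8.74 and 10.02 in accumbens, with medians of 9.18 and 9.36. The regions overlapped over nearly their whole ranges, and 19 of 27 strains were higher in accumbens. Its difference of 0.19 (SE 0.07, adjusted p = 0.011) was near the 0.12 of the median feature, and it no longer passed after quantile normalization across regions (0.12, adjusted p = 0.11) or after each array was centred on its median (0.09, adjusted p = 0.22). Cdh1, Cdh3 and Cdh15, known from epithelia, placenta and muscle, were dim, with region means from 2.81 to 3.52.

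Type II cadherins went both ways. Cdh10, Cdh11, Cdh9 and Cdh22 were lower in accumbens, Cdh7 and Cdh8 were higher, and the median over these 6 was -0.45. Cdh10 ranged in cortex from 7.42 in SWR/J through 8.07 to 8.55 in AKR/J, and in accumbens from 6.23 in I/LnJ through 7.29 to 7.90 in NOD/LtJ. No strain was higher in accumbens, although the ranges of the regions overlapped. The mean fell from 8.03 ± 0.25 to 7.24 ± 0.33, a difference of -0.80 (SE 0.06, adjusted p = 2.82e-13) or 1.74-fold, and a second probe set gave -1.13. Cdh11, known in mesenchymal cells and in synapses, ranged from 8.04 through 8.53 to 8.83 in cortex and from 7.21 in BTBR T+ tf/J through 7.92 to 8.28 in accumbens. It too was lower in accumbens in every paired strain, by 0.66 log2 units on average (the fitted difference was -0.66, SE 0.05, adjusted p = 1.75e-12).

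Cdh9, a cadherin of selected synapses, ranged from 6.40 through 6.98 to 7.50 in cortex and from 4.53 in BALB/cByJ through 6.45 to 7.23 in accumbens. The accumbens values spread more than those of cortex (SD 0.58 against 0.26), and 6 of 27 strains were higher in accumbens. The difference was -0.52 (SE 0.10, adjusted p = 4.34e-05). Cdh22 ranged from 6.56 through 6.98 to 7.39 in cortex and from 5.89 through 6.60 to 7.36 in accumbens, with a difference of -0.38 (SE 0.07, adjusted p = 2.23e-05) and 4 strains higher in accumbens. The 2 regions overlapped widely for both genes.

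Cdh7 was dim in cortex, between 4.67 and 5.30 with a median of 4.91, and read 4.84 to 6.45 with a median of 6.06 in accumbens. All accumbens arrays but that of BALB/cByJ, the lowest at 4.84, lay above every cortex array. The cortex mean of 4.93 ± 0.13 was below the filter level, so the rise is given as at least 2.03-fold (difference 1.09, SE 0.06, adjusted p = 1.70e-16). A second probe set gave 1.55, and its cortex mean of 4.32 was also under log2 5, so the size of that difference is not firm. Cdh8, a type II cadherin of cortical and striatal circuits, ranged from 6.62 through 7.06 to 7.73 in cortex and from 6.95 through 7.43 to 8.01 in accumbens. It was higher in accumbens in 24 of 27 strains, by 0.38 (SE 0.06, adjusted p = 1.11e-06), with overlapping ranges. Cdh5, Cdh6, Cdh18, Cdh19 and Cdh20 did not pass the filter, with region means from 2.45 to 4.44. Cdh5 is VE-cadherin of endothelium, and both of its probe sets stayed at region means of 2.54 or less. Of 11 endothelial and mural markers 8 passed the filter, while the endothelial genes Pecam1, Emcn and Kdr did not.

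The atypical cadherin Cdh13 (T-cadherin), which has no cytoplasmic tail and is anchored to the membrane by a lipid, gave the largest difference of the 24 on the probe sets used. It ranged in cortex from 5.15 in NON/LtJ through 6.11 to 7.04 in 129S1/SvImJ, and in accumbens from 6.74 in SWR/J through 7.65 to 8.51 in BUB/BnJ. All 27 strains were higher in accumbens, while the highest cortex arrays reached into the accumbens range. The mean rose from 6.18 ± 0.56 to 7.63 ± 0.37, a difference of 1.46 (SE 0.11, adjusted p = 6.37e-13) or 2.75-fold, and a second probe set gave 0.87. Cdh16, Cdh17, Cdh23 and Cdh26, known from kidney, gut, hair cells and other tissues, had region means from 1.99 to 2.42.

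Delta-1 protocadherins were led by Pcdh7, which was lower in accumbens. Pcdh7 ranged in cortex from 9.35 in MA/MyJ through 9.66 to 10.10 in I/LnJ, and in accumbens from 8.11 in BTBR T+ tf/J through 8.61 to 9.30 in BALB/cByJ. The lowest paired cortex array was above the highest accumbens array, and only the cortex array of NZO/HILtJ, a strain with no accumbens array here, lay within the accumbens range at 9.21. The mean fell from 9.64 ± 0.18 to 8.63 ± 0.28, a difference of -1.02 (SE 0.05, adjusted p = 1.60e-17) or 2.03-fold. A single probe set of Pcdh7 passed the filter.

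Pcdh9 and Pcdh11x changed less. Pcdh9 ranged from 9.24 through 9.75 to 10.09 in cortex and from 9.14 through 9.55 to 9.92 in accumbens. The ranges overlapped nearly fully, and the fitted difference was -0.17 (SE 0.04, adjusted p = 2.30e-04). Its 2 other probe sets gave 0.10 and 0.70, in the opposite direction, so the direction of Pcdh9 differs between its probe sets. The probe set at 0.70 had a cortex mean of 4.95, under log2 5. Pcdh11x, an X-linked gene, ranged from 5.96 through 6.76 to 7.71 in cortex and from 6.11 through 7.27 to 8.00 in accumbens. It was higher in accumbens in 22 of 27 strains, by 0.39 (SE 0.12, adjusted p = 0.0030). Pcdh1 was dim, with region means of 2.61 and 2.63.

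Delta-2 protocadherins included Pcdh10, also called OL-protocadherin and known for binding the WAVE complex and for the growth of striatal axons. Pcdh10 ranged in cortex from 7.27 in SWR/J through 7.87 to 8.46 in AKR/J, and in accumbens from 8.86 in SWR/J through 9.13 to 9.84 in 129S1/SvImJ. No cortex array reached the lowest accumbens array, and SWR/J was the lowest strain in both regions. The mean rose from 7.87 ± 0.27 to 9.16 ± 0.23, a difference of 1.29 (SE 0.06, adjusted p = 2.17e-18) or 2.44-fold. Of its 4 other probe sets past the filter, 3 had the same sign, and the 4 differences ran from -0.20 to 1.08.

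Pcdh17, a protocadherin of corticobasal ganglia synapses, ranged in cortex from 7.34 in I/LnJ through 8.79 to 9.26 in C3H/HeJ, and in accumbens from 8.48 in NOD/LtJ through 9.81 to 10.36 in SM/J. Every strain was higher in accumbens, but the regions overlapped since strains differed widely within each. The mean rose from 8.62 ± 0.54 to 9.65 ± 0.55, a difference of 1.03 (SE 0.07, adjusted p = 1.36e-14) or 2.04-fold, and a second probe set gave 1.12.

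Pcdh8 and Pcdh19 did not pass the region test. Pcdh8 (arcadlin), an activity-regulated protocadherin, ranged from 7.41 through 7.91 to 8.44 in cortex and from 6.56 in FVB/NJ through 7.54 to 9.02 in CE/J in accumbens, with a difference of -0.25 (SE 0.12, adjusted p = 0.055). The accumbens spread was wider than that of cortex (SD 0.69 against 0.24). Pcdh19, an X-linked gene mutated in a human epilepsy, ranged from 7.43 through 7.78 to 8.21 in cortex and from 6.99 through 7.74 to 8.55 in accumbens, with a difference of -0.10 (SE 0.08, adjusted p = 0.23). Both were called lower after quantile normalization across regions (-0.35, adjusted p = 0.010 for Pcdh8, and -0.21, adjusted p = 0.020 for Pcdh19). Pcdh18 missed the filter with means of 3.72 and 4.92.

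Among the other solitary protocadherins Pcdh15, a tip-link protein of hair cells that is also expressed in oligodendrocyte precursors, was lower in accumbens. It ranged in cortex from 4.24 in I/LnJ through 5.63 to 6.06 in 129S1/SvImJ, and in accumbens from 3.96 in C3H/HeJ through 4.85 to 5.78 in BALB/cByJ. Only 3 of 27 strains were higher in accumbens, though the ranges overlapped. The accumbens mean of 4.88 was below the filter level, so the fold is at least 1.49 (difference -0.70, SE 0.10, adjusted p = 1.57e-07). In the same arrays all 6 oligodendrocyte precursor markers past the filter were higher in accumbens, beside 51.0% of all features. Their median difference was 0.61, the opposite direction to Pcdh15, and the part of these cells in the Pcdh15 difference was not tested. Pcdh12 and Pcdh20 were dim, with region means from 2.56 to 4.26.

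**Figure D2:**
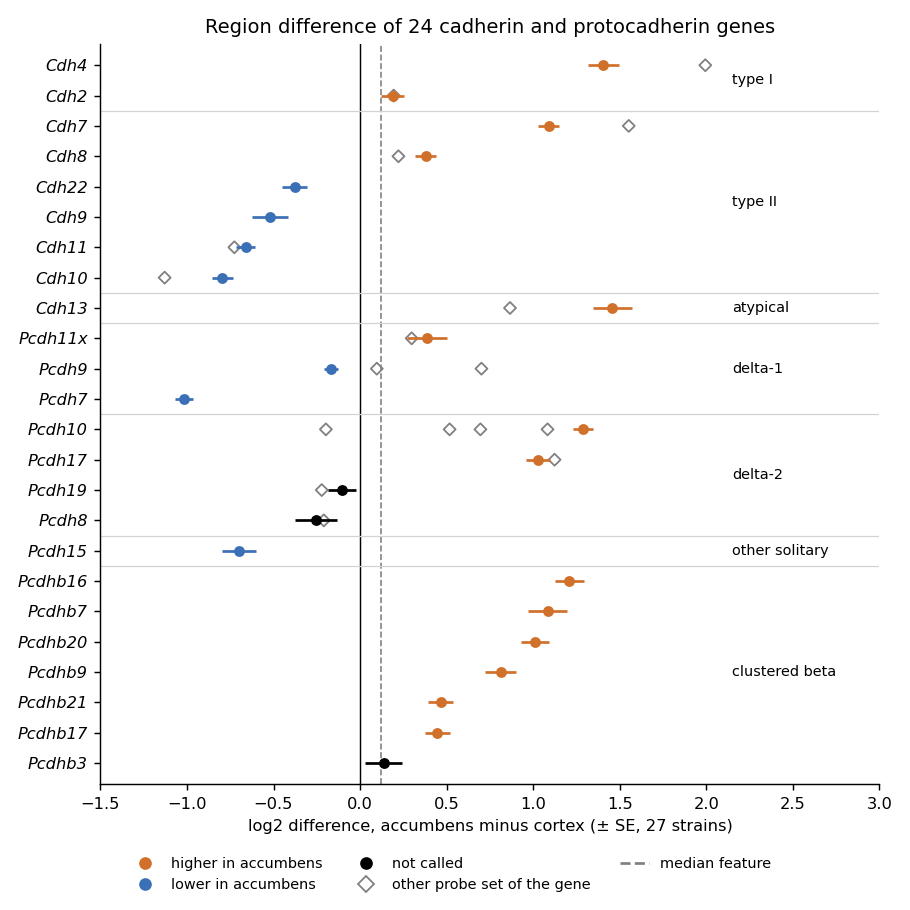
Region difference (accumbens minus cortex, log2 units, horizontal axis) of the 24 members with its SE over 27 strains, in orange where higher, blue where lower and black where not called, other probe sets of the gene as open diamonds and the median feature as a dashed line. Among the probe sets used, Cdh13 has the largest positive difference, 1.46, and Pcdh7 the largest negative one, -1.02, and other probe sets reach 1.99 for Cdh4 and -1.13 for Cdh10. The Cdh4 probe set at 1.99 had a cortex mean under log2 5.

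Clustered beta protocadherins are single-exon genes in 1 tandem array, and 7 of the 22 with a probe set passed the filter. Of these, 6 were higher in accumbens, none was lower and Pcdhb3 did not pass, with a median difference of 0.81 (51.0% of all features were called higher). Pcdhb7 and Pcdhb20 are among the members that passed the filter through accumbens, so the count and median rest in part on the filter. The remaining 15 had region means from 1.87 to 4.15. Pcdhb16 ranged in cortex from 2.95 in KK/HlJ through 5.78 to 6.53 in MA/MyJ, and in accumbens from 4.61 in KK/HlJ through 7.08 to 7.61 in BUB/BnJ. It was higher in accumbens in 26 of 27 strains, by 1.21 (SE 0.09, adjusted p = 6.08e-14) or 2.31-fold, and KK/HlJ was the lowest array of both regions. Pcdhb9 ranged from 3.91 in KK/HlJ through 6.29 to 6.93 in cortex and from 3.63 in KK/HlJ through 6.996 to 7.65 in accumbens, with A/J highest in both. Its rise was 0.81 (SE 0.09, adjusted p = 8.39e-10), seen in 26 of 27 strains, and KK/HlJ was the exception.

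Pcdhb7 and Pcdhb20 had cortex means below the filter level, 4.75 ± 0.49 and 4.92 ± 0.12. Pcdhb7 ranged from 3.20 in I/LnJ through 4.77 to 5.85 in MA/MyJ in cortex and from 4.64 in BALB/cByJ through 5.91 to 6.48 in CBA/J in accumbens, at least 1.79-fold higher (difference 1.08, SE 0.11, adjusted p = 4.10e-10). Pcdhb20 ranged from 4.74 through 4.90 to 5.29 in cortex and from 4.75 in BALB/cByJ through 5.99 to 6.52 in C58/J in accumbens, at least 1.90-fold higher (difference 1.01, SE 0.08, adjusted p = 5.89e-13). For both, the accumbens array of BALB/cByJ was the lowest of its region and lay within the cortex range. Pcdhb17 and Pcdhb21 rose less, by 0.45 (SE 0.07, adjusted p = 1.01e-06) and 0.47 (SE 0.07, adjusted p = 5.82e-07), in 25 and 24 of 27 strains, with overlapping ranges. Probe sets of neighbouring beta genes could share signal, which was not tested. None of the probe sets used for the 24 members carries the platform's mark for cross-hybridisation. Leaving out marked probe sets therefore could not change these readings.

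Strain was called for Pcdh17, Pcdh9, Pcdhb3, Pcdhb9, Pcdhb16 and Pcdhb17. These are 4 of the 7 clustered beta genes, 2 of the 8 solitary protocadherins and 0 of the 9 cadherins past the filter. Over all features 20.4% were called, and the difference between these groups was not tested. Pcdhb3 passed the filter on 14 arrays (8 of cortex, 6 of accumbens), from the strains where it is high. The count of beta genes thus rests in part on the filter. In each call an effect of strain cannot be told from an effect of the mice pooled for it. Probes were not aligned to the strain genomes, so a strain's low reading may also belong to the probe set and not to the transcript level. The calls of Pcdhb9 and Pcdhb16 rested on KK/HlJ. The KK/HlJ mean of both regions was 3.77 for Pcdhb9, and the next strain, FVB/NJ, was at 6.19. For Pcdhb16 KK/HlJ was at 3.78, and the next strain, BALB/cByJ, was at 5.84. Without KK/HlJ the limma adjusted p for strain went from 8.47e-06 to 0.11 for Pcdhb9 and from 2.13e-05 to 0.24 for Pcdhb16, while the region differences were 0.85 and 1.19. These were the only 2 of the 24 members for which KK/HlJ was lowest in both regions.

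The other beta genes of KK/HlJ went both ways. In the RefSeq order of the 22 beta genes, 6 genes lie between Pcdhb9 and Pcdhb16, and none of them passed the filter. Pcdhb17, next to Pcdhb16, read 5.99 in cortex and 6.18 in accumbens of KK/HlJ, above the medians of the other strains (5.37 and 5.92). Pcdhb20 of KK/HlJ was also above the other strains' medians, at 5.03 and 6.51 against 4.89 and 5.99. Pcdhb21 was below them in both regions (4.79 and 5.44 against 5.26 and 5.79), as was Pcdhb3 (3.15 and 3.28 against 4.47 and 4.67). Pcdhb7 was below in cortex (4.55 against 4.79) and above in accumbens (5.98 against 5.87). Each of these genes had 1 probe set past the filter, so a second reading is lacking.

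Pcdhb3 differed across strains without a region difference (0.14, SE 0.11, adjusted p = 0.23). Its strain means ran from 2.81 in SM/J and 3.12 in BTBR T+ tf/J through a median of 4.49 to 5.53 in FVB/NJ and 6.07 in 129S1/SvImJ (adjusted p for strain 1.54e-06). Both regions were above log2 5 in 5 strains and below it in both in 18, so Pcdhb3 entered the test through its high strains. C57BL/6J (2.90 in cortex, 3.41 in accumbens), C57BR/cdJ (3.15 and 3.45) and KK/HlJ (3.15 and 3.28) were also low, and the cortex-only strain MRL/MpJ, at 2.77, was below all 27 paired cortex arrays. Values below log2 5 have no firm order, and with them raised to 5 the strains spanned 1.07 log2 units. Leaving out each strain in turn kept the call, with a highest adjusted p of 1.14e-05.

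**Figure D3:**
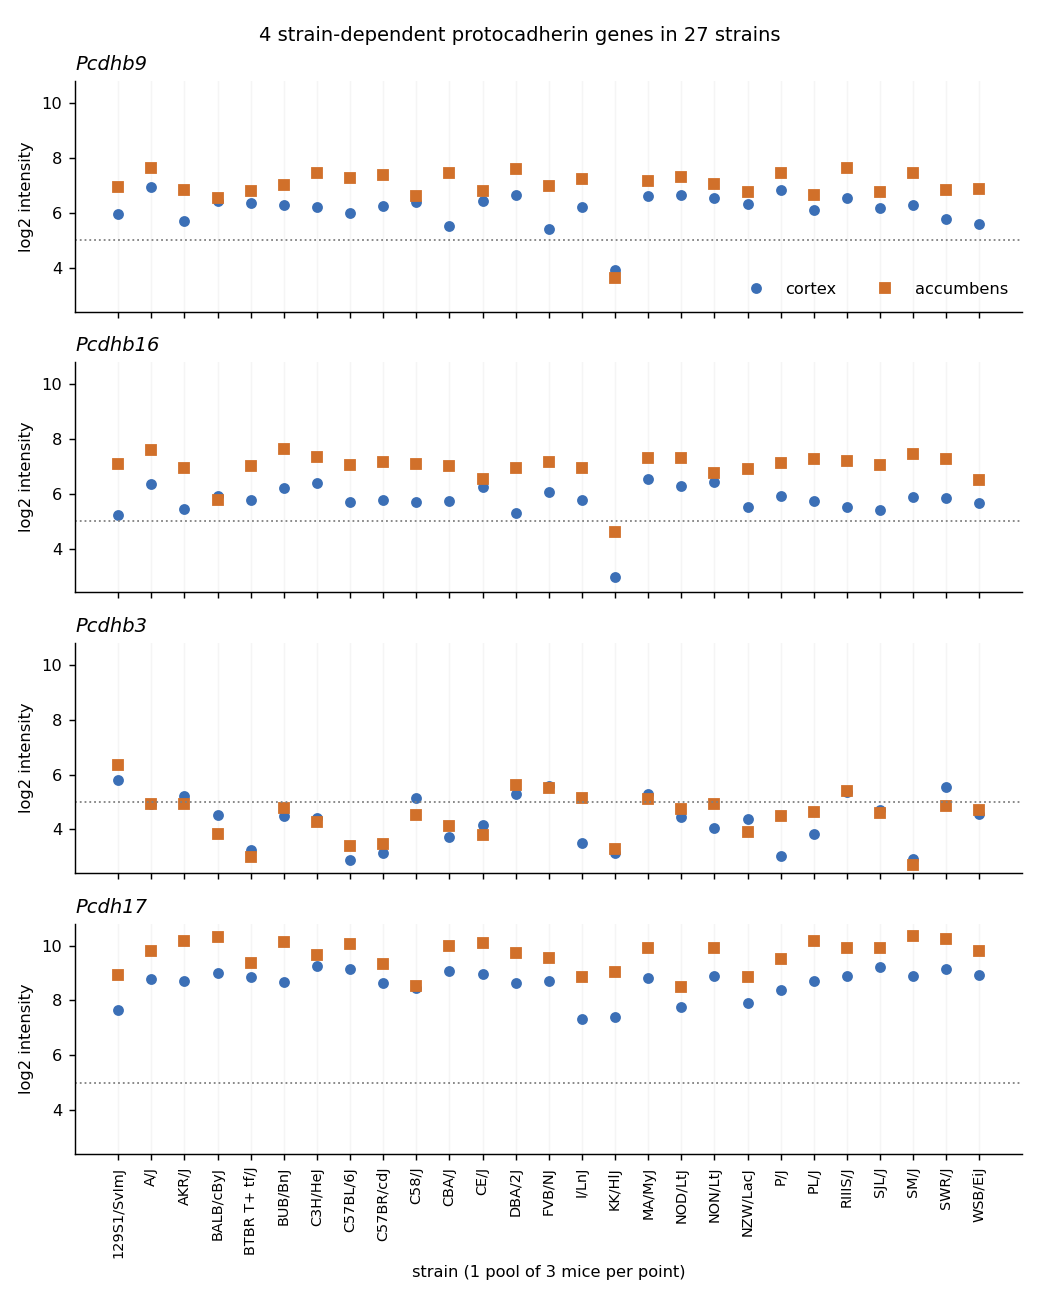
Log2 intensity (vertical axis) of 4 strain-dependent protocadherin genes in each of 27 strains (horizontal axis), 1 point per pool of 3 mice (blue circles cortex, orange squares accumbens), with a dotted line at log2 5. KK/HlJ is far below the other strains in both regions for Pcdhb9 and Pcdhb16, and 129S1/SvImJ is highest for Pcdhb3.

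Pcdh17 split the strains without a single outlier. Its lowest strain means were 8.10 in I/LnJ, 8.13 in NOD/LtJ, 8.21 in KK/HlJ, 8.30 in 129S1/SvImJ, 8.37 in NZW/LacJ and 8.51 in C58/J, and the next was 8.95 in P/J. The highest was 9.69 in SWR/J (adjusted p for strain 3.29e-06, and at most 1.97e-05 with any 1 strain left out). On the second probe set KK/HlJ, NOD/LtJ and I/LnJ were again the 3 lowest, at 7.74, 7.78 and 7.79, and C58/J followed at 8.00. There 129S1/SvImJ (8.43) and NZW/LacJ (8.53) were not among the lowest 6, and the strain adjusted p was 0.045 when every probe set was tested. The low values of the 3 lowest strains were thus read by both probe sets, and those of 129S1/SvImJ and NZW/LacJ by 1.

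Pcdhb17 ran from 4.94 in NON/LtJ to 6.17 in A/J and 6.18 in 129S1/SvImJ (adjusted p for strain 0.025), and Pcdh9 from 9.34 in I/LnJ to 9.91 in BTBR T+ tf/J (0.032). Both calls were near the threshold. Pcdhb17 lost its call without A/J (0.052) or NON/LtJ (0.067), and Pcdh9 lost its call without 129S1/SvImJ, BTBR T+ tf/J or I/LnJ (0.051 to 0.053). Cdh10, at 0.054, was just outside and was called with any 1 of 7 strains left out (0.037 to 0.049). When every probe set was tested, other probe sets of Cdh7 (adjusted p for strain 2.39e-05), Cdh10 (4.29e-04) and Pcdh10 (4.12e-04) were called as well. That of Pcdh10 is the one whose region difference was -0.20, and its strain means ran from 5.57 in C57BL/6J to 6.70 in CBA/J. For that Cdh7 probe set BALB/cByJ had the lowest strain mean, 3.57, and C57BL/6J the highest, 6.60. The BALB/cByJ mean and the cortex mean of this probe set, 4.32, were under log2 5, so the size of that span is not firm. The accumbens array of BALB/cByJ also stood apart in the markers of its region, as described below. By contrast, the 2 other probe sets of Pcdh9 were not called (adjusted p for strain 0.60 and 0.53, against 0.034 for the one used). The strain result of Cdh7, Cdh10, Pcdh10 and Pcdh9 therefore differs between probe sets of the same gene.

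Some arrays stood apart in the markers of their region. The mean of 10 spiny neuron markers, which define the accumbens, was 7.53 in BALB/cByJ, 9.06 in NON/LtJ, 9.31 in CE/J and 9.72 in WSB/EiJ, and 10.12 to 10.68 in the other 23 accumbens arrays. The cortex array of MA/MyJ read 9.25 for these markers, and no other paired cortex array exceeded 5.46. The mean of the septal and ventral forebrain markers was 8.74 in BALB/cByJ, 8.18 in NON/LtJ, 8.31 in CE/J and 7.89 in WSB/EiJ, against 6.38 to 7.85 on the other 23 accumbens arrays. In accumbens the mean of the cortical excitatory neuron markers was 6.26 in NOD/LtJ, 6.03 in SJL/J, 5.99 in BUB/BnJ and 5.65 in P/J. On every other accumbens array it was 5.43 or less. The part of tissue composition in the values of these arrays was not tested.

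Pcdh8 was 8.72 to 9.02 on the 4 accumbens arrays low in spiny neuron markers. On the other 23 its median was 7.31 and its maximum 8.68. Pcdh19 was 8.16 to 8.55 on the 4, above the other 23 (median 7.74, highest 8.06). Cdh9 lay at 4.53 to 6.31 on the 4, against 5.81 to 7.23 on the other 23 (median 6.61). Pcdhb20 lay at 4.75 to 5.64, against 5.43 to 6.52 (median 6.00). For Cdh9 and Pcdhb20 the 4 arrays thus overlapped the rest. These 4 genes were chosen for display after their values were seen.

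**Figure D4:**
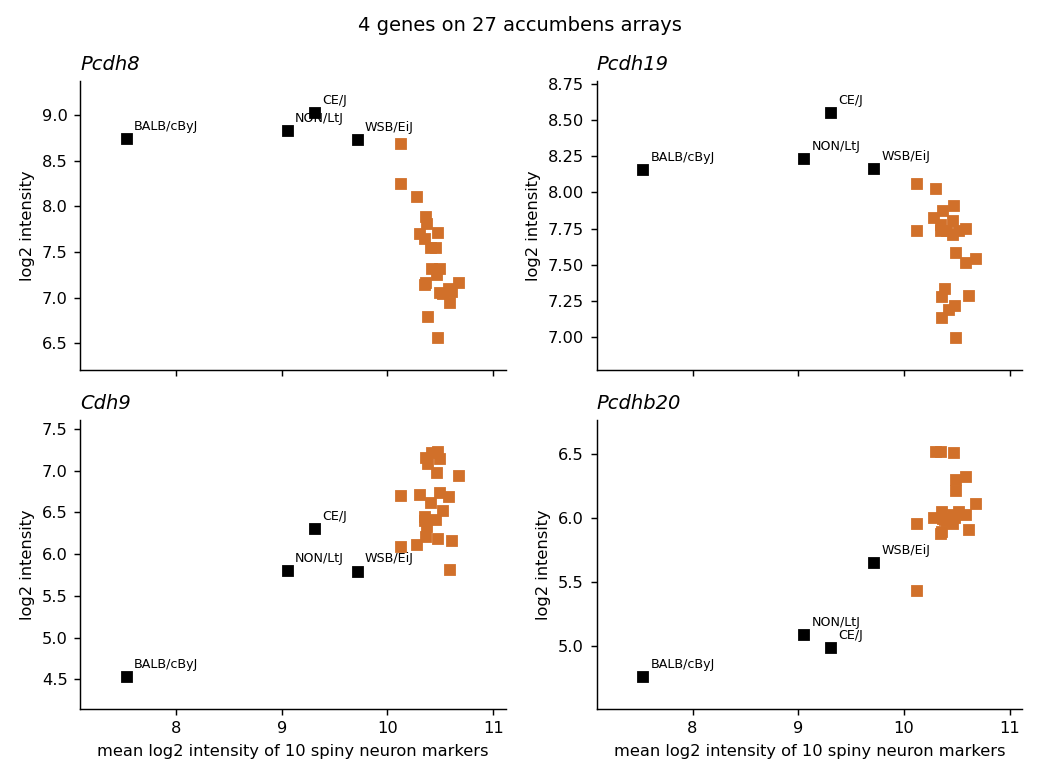
Log2 intensity of 4 genes (vertical axes) against the mean of 10 spiny neuron markers (horizontal axis) on the 27 accumbens arrays, 1 square per array. BALB/cByJ, NON/LtJ, CE/J and WSB/EiJ (black) have the lowest marker means, from 7.53 to 9.72, and the highest Pcdh8 and Pcdh19 values.

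Without BALB/cByJ, NON/LtJ, CE/J, WSB/EiJ and MA/MyJ, 13 members were higher and 9 lower in accumbens. Pcdh8 was then lower by more than in the full set (-0.46, SE 0.10, adjusted p = 1.58e-04), Pcdh19 passed the test (-0.23, adjusted p = 0.0070) and Cdh2 did not (0.11, adjusted p = 0.13). The strain call of Pcdh9 was lost (0.089), and Pcdhb21 gained one (0.035). Fitted differences of at least 2-fold were found in the same 9 members with and without these strains.

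Cell type markers moved with region beside these genes, where 51.0% of all features were called higher and 32.9% lower. All 10 spiny neuron markers past the filter were higher in accumbens (median 4.90), and of 10 cortical excitatory neuron markers 8 were lower and 2 higher (median -3.96). All 9 oligodendrocyte markers were higher (median 1.36), 7 of 8 endothelial and mural markers were lower and 1 higher (median -0.46), 4 of 4 meningeal markers were lower (median -1.90), and of 8 astrocyte markers 3 were higher and 4 lower (median -0.29). The part of cell composition in the cadherin differences was not tested, and in whole tissue fewer cells of a type and less RNA per cell cannot be told apart.

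Intracellular partners of classical cadherins showed no common direction. Of 14 catenins and partners, 10 passed the filter, 4 being higher and 4 lower (median 0.03), beside 51.0% and 32.9% of all features. Delta-catenin (Ctnnd2), enriched in neurons, was lower in accumbens (9.35 ± 0.21 in cortex, 8.56 ± 0.19 in accumbens, difference -0.80, adjusted p = 9.06e-16). p120 catenin (Ctnnd1), which keeps cadherins at the membrane, fell by 1.17, at least 1.72-fold, and Ctnnbip1, an inhibitor of beta-catenin, fell by 1.04. Vinculin (Vcl), which links catenins to actin, rose by 0.69, and beta-catenin (Ctnnb1) rose by 0.12, the shift of the median feature. Of the nectins, which act with cadherins at junctions, Nectin3 was at least 4.60-fold lower in accumbens (7.20 ± 0.40 in cortex) and Nectin1 rose by 0.21 log2 units.

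The cadherin superfamily has further branches. Of 22 listed, 21 had a probe set and 8 passed the filter, with 1 higher and 5 lower (median -0.49, beside 51.0% and 32.9% of all features). The calsyntenins, synaptic proteins with cadherin repeats, were all lower, Clstn2 by 3.90-fold, Clstn1 by 1.90-fold and Clstn3 by 1.40-fold. Among the giant FAT cadherins Fat1 was 2.19-fold higher, Fat4 was at least 1.17-fold lower and Fat3 differed by 0.03 (adjusted p = 0.72). Of the genes listed for cadherin shedding and endocytosis, 4 of 4 past the filter were lower (median -0.38). Over all features the median was 0.12 and 32.9% were called lower. Numb was lower by 1.95-fold, Psen2 by 1.35-fold and the sheddase Adam10 by 1.25-fold. The remaining gene, Nprl2 (-0.17), is not known for either function, so the count and median rest in part on it.

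Of protocadherin partners and WAVE complex genes, 7 were higher and 4 lower of 12 past the filter. This was near the 51.0% and 32.9% of all features, and the median of 0.18 was near their 0.12. Marcks was 2.25-fold higher, Wasf2 1.39-fold and Abi2 1.31-fold higher, and Fyn was 1.30-fold lower in accumbens. Regulators of clustered protocadherin promoters, which act through CTCF, cohesin and silencing factors, were higher in 8 of 8 cases past the filter (median 0.31, against 0.12 for all features, of which 51.0% were called higher). The largest were Nipbl, which loads cohesin, at 0.56 (SE 0.05, adjusted p = 1.26e-12), the histone methyltransferase Setdb1 at 0.51, the cohesin subunit Rad21 at 0.47 and Smchd1 at 0.37. Ctcf itself rose by 0.21 (SE 0.03, adjusted p = 5.57e-07).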

How the data were processed

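Analysis started from the intensity of each probe set as deposited by the authors, on a linear scale, from 1-colour arrays. GCRMA is named in the submitters' processing notes, with no version given in the sources used here, nor whether the regions were normalised together. Log2 was taken with no pseudocount. Genes came from 34880 probe sets annotated to 1 symbol (923 had several, 9148 none), with the brightest probe set per gene over 54 paired arrays. Features above log2 5 on at least 13 of these arrays were kept, 10680 in all, of which 8807 were named. Region and strain were tested in R 4.3.3 with limma 3.58.1 (strain as a block, moderated t for region, moderated F for strain), with Benjamini-Hochberg adjustment over all features, in a procedure tested on simulated data. A fold is at least the stated size where 1 region's mean was under log2 5, which then stood in for it. Array medians were 9.93 to 10.4 in cortex and 9.66 to 10.1 in accumbens (intensity), and precision is limited by how many arrays there were. The region p-values set the difference against its variation from strain to strain, after the block took out the strain means. The strain p-values set the strain means against the same residual variation. The members, gene lists and rules were chosen with earlier results of these data known. In each structural class up to 5 kept members by size of region difference and the brightest were named, with the 6 called members that varied most by strain and up to 4 genes of each other list. Pairing by strain comes from the strain labels and the design text. Alternatives were quantile normalization, median centring, other filters, a floor, every probe set, a threshold of 0.01, a trend in the variance, no block and strains left out.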

Additional observations from a re-analysis of the deposited data

How the results depend on the processing

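The counts of 14 members higher and 7 lower were the same without the replicate block of strain pairing (14 and 7), with values below log2 5 raised to 5, and with a trended, robust variance. Centring each array or quantile normalization gave 13 and 9 and left 4 members with a fitted difference at least 2-fold higher. With no filter 22 were higher and 21 lower, and with a filter at log2 7, 8 were higher, 4 of them at least 2-fold. At least 2-fold lower were 2 members with no filter and 2 with every probe set tested. Over all features, 10293 were higher and 12391 lower with no filter, 3052 and 2049 with the filter at log2 7, and 8320 were higher with every probe set. Strain was called for 1214 features with the filter at log2 7 and 1257 at a threshold of 0.01. Leaving out each strain in turn gave 14 to 14 higher, 7 to 8 lower and 4 to 7 called for strain. Pcdhb3, never called between regions, turned to -0.0034 with the floor. A wider setting left out 9 strains, the 5 with arrays apart in spiny neuron markers together with BUB/BnJ, NOD/LtJ, P/J and SJL/J. It gave 12 members higher and 8 lower, and Pcdh11x was not called (0.32, adjusted p = 0.055). Of the members' region differences under these settings, 242 kept their call and direction, 7 gained a call, 6 lost it and 1 reversed. Region means under log2 5 limit Cdh7, Pcdh15, Pcdhb7 and Pcdhb20, whose folds are bounds, and Pcdhb3, which has none. The median difference was -0.02 for members and -0.02 for all features with no filter, and 0.04 and 0.10 with the filter at log2 7.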

Other observations

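The alpha cluster had no probe set annotated to 1 gene, so none of its genes was a member. Of 6 probe sets that list several alpha genes, 3 list 14 genes each. On these, the signal was 8.98 ± 0.15 in cortex and 8.20 ± 0.18 in accumbens (difference -0.77, adjusted p = 1.97e-14 with every probe set tested), 7.04 and 6.53 (-0.51, adjusted p = 2.11e-10), and 6.60 and 6.70 (0.09, adjusted p = 0.10). The first pair ran opposite to the 6 beta genes that were higher in accumbens, and which alpha genes each probe set reads cannot be told apart. No strain difference was called on these 3 probe sets, with adjusted p from 0.19 to 0.94. The only gamma gene with a probe set annotated to 1 gene was Pcdhgc4. Its means, 3.27 in cortex and 4.16 in accumbens, were under the filter. Any probe sets that list several gamma genes were not looked at separately.

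Among members under the filter, Pcdh18 read 3.72 in cortex and 4.92 in accumbens, Cdh6 read 4.44 and 3.40, and Pcdh20 read 4.26 and 3.94 with 3.84 and 2.63 on its second probe set. Of the cortex-only strains, NZO/HILtJ was outside the range of the 27 paired cortex arrays in 2 members, Pcdh7 (9.21, below) and Pcdh8 (8.80, above), and MRL/MpJ in 1, Pcdhb3.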
